A study of Mus musculus with 12 samples.

Results

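The ERK feedback genes are 10 genes that code for inhibitors and transcription factors under the control of the RAF, MEK and ERK kinase cascade. They were chosen by name: Dusp4, Dusp5 and Dusp6, Spry1, Spry2 and Spry4, Spred1 and Spred2, and Etv4 and Etv5. The choice was made with earlier results of these data known. All 10 were found among the 24054 gene symbols counted and all 10 were among the 14860 genes with enough reads to be tested. Poly(A) RNA was sequenced from 12 mouse samples of the colon, 4 in each of 3 groups. BTPRZ-T is tumour of the genotype BrafV600E;Tgfbr2-/-;Rnf43-/-/Znrf3-/-;p16 Ink4a-/-, BT-T is tumour of the genotype BrafV600E;Tgfbr2-/-, and N is normal colon of the wild type. Both tumour groups grew from edited colonic organoids after engraftment and share the activated kinase allele BrafV600E and the loss of Tgfbr2, a receptor for TGF-beta. BTPRZ-T also lacks Rnf43 and Znrf3, ubiquitin ligases that take WNT receptors off the membrane, and p16 Ink4a, a cell cycle inhibitor. The strain given for every library is NSG, an immunodeficient mouse without mature lymphocytes that keeps its own stroma and myeloid cells, so a tumour library holds host cells beside the engrafted epithelium. No ages are given, and the labels do not state that replicates are different animals. Sex-linked RNA differs within N, so N replicate 4 is not from the same animal as any of N replicates 1 to 3. For replicates not told apart this way, the spread behind the p-values may be technical.

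In the cascade, RAF kinases such as BRAF phosphorylate MEK, MEK phosphorylates ERK, and ERK enters the nucleus and switches on target genes. Some of these targets act back on the cascade. Dual-specificity phosphatases (DUSP) of the MAP kinase phosphatase class remove the phosphates that activate ERK, and Sprouty (Spry) and Spred proteins restrain signalling between the receptor, RAS and RAF. ETV4 and ETV5 are ETS transcription factors of the PEA3 group that are switched on by receptor and ERK signals. In the intestine this cascade carries growth signals from EGF family ligands to the crypt, and BRAF V600E signals without them.

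Reads in genes came to 15.7M to 21.2M per library in BTPRZ-T, 18.8M to 26.1M in BT-T and 16.5M to 19.2M in N. The 10 genes had between 26 and 3580 reads per library. Levels are CPM, the reads of a gene scaled to a common library total, after TMM scaling, which corrects that total for a few very abundant genes. Genes were called changed at a Benjamini-Hochberg adjusted p under 0.05 over all genes tested with edgeR's quasi-likelihood test. No library was without reads of the 8 epithelial markers such as Epcam, Krt8 and Cdh1. Their summed level was 7711 to 16270 CPM in BTPRZ-T, 8870 to 10730 CPM in BT-T, and in N it was 10480 to 12690 CPM. Fibroblast markers summed to 1853 to 8343 CPM in BTPRZ-T, 8546 to 16750 CPM in BT-T, with 1059 to 1818 CPM in N. Smooth muscle markers summed to 279.3 to 3802 CPM in BTPRZ-T, 2739 to 4461 CPM in BT-T, with 5835 to 16380 CPM in N. In such bulk samples, fewer cells of a type and less RNA per cell cannot be told apart. The smallest numbers of detected genes were 14697 and 13450 in BTPRZ-T replicates 1 and 4 and 14175 in N replicate 2, and ribosomal protein genes took 3.64 to 9.09% of the gene reads in BTPRZ-T, 1.86 to 2.73% in BT-T and 1.59 to 1.94% in N, apart from 11% in N replicate 2. The part of this difference in the results was not tested.

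RefSeq promoters on GRCm38.p6, from 250 bases before to 50 bases after the transcription start, were found for 7 of the 10 genes; Dusp4, Spry4 and Etv4 are named only. The printed sequences are the start regions of the phosphatase gene with the highest level (Dusp6), of the 2 genes called in BT-T (Spred1 and Etv5), and of the gene whose window holds a searched motif (Dusp5), with that motif in capitals. Dusp6 is at chr10:99262981-99263280 (+), Spred1 at chr2:117120821-117121120 (+), Etv5 at chr16:22439521-22439820 (−) and Dusp5 at chr19:53528895-53529194 (+).
Dusp6: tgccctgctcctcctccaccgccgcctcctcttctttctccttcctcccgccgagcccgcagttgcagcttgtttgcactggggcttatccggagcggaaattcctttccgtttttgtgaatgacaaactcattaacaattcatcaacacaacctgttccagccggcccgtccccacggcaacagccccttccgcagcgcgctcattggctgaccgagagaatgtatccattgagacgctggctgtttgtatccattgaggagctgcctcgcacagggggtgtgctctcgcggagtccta
Spred1: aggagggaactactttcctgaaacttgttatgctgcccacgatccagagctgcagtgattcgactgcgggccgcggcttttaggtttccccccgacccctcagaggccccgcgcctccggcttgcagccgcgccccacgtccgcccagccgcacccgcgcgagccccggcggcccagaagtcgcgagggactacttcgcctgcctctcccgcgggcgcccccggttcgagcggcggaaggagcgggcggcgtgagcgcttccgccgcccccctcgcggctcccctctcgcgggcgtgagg
Etv5: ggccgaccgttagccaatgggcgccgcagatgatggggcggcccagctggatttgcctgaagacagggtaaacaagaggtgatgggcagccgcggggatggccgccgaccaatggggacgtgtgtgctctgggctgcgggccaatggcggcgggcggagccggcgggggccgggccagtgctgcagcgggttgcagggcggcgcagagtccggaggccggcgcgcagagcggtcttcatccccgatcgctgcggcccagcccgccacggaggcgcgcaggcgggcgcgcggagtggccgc
Dusp5: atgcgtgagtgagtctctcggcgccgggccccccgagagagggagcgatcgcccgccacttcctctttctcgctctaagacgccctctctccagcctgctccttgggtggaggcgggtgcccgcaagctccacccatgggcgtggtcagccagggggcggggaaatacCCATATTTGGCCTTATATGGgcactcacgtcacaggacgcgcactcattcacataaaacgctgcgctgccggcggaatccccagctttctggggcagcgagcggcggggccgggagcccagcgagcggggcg
The capitals in Dusp5 mark 2 adjacent matches to the CArG box, the motif of serum response factor, which begin 82 and 72 bases before the start. This motif was added to the search after the sequences had been seen, and it occurs in 1.63% of 32851 RefSeq promoters of the same length. Another 3 motifs were searched on both strands: CCGGAAGT of the ETS family (in 3.89% of promoters), TGACGTCA of the cyclic AMP response element (1.79%) and TGANTCA of AP-1 (7.81%). None of these letters occurred in the 8 windows of the 7 genes. GC content was 57.3% in the Dusp6 window, 72.3% in Spred1, 74.0% in Etv5 and 66.7% in Dusp5, against a median of 52.7% over all promoters.

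Compared with normal colon, edgeR called 3 of the 10 genes higher in BTPRZ-T (Dusp4, Dusp6 and Etv4) and none lower. DESeq2 called 5, those 3 and Spry1 higher and Etv5 lower (20.5% of all genes called). Of all genes tested in that comparison, 5.66% were called higher, 6.18% lower and 11.8% in either direction. In BT-T, 1 of the 10 genes rose (Spred1) and 1 fell (Etv5), where 5.67% of all genes were called higher, 2.90% lower and 8.57% in either direction. DESeq2 called 5 in BT-T against N, Dusp4, Spry1, Spred1 and Etv4 higher and Etv5 lower (16.1% of all genes called). Between BTPRZ-T and BT-T none of the 10 genes was called by edgeR, where 0.754% of all genes were called. In this last comparison 3 of the 10 had an unadjusted p under 0.05, a threshold for which the share of all genes is not given here. DESeq2 called 2 of these 3 genes (8.19% of all genes called) and limma with voom called 0 (1.52%). The median log2 fold change of the 10 genes was 0.72 for BTPRZ-T against N, beside -0.10 for all genes tested. It was 0.66 for BT-T against N, beside -0.10, and 0.09 for BTPRZ-T against BT-T, beside -0.03. Both comparisons with normal colon use the same 4 N libraries. The libraries did not overlap for 2 of the 10 genes in BTPRZ-T against N (14.5% of all genes), 2 in BT-T against N (22.4%) and 4 between BTPRZ-T and BT-T (24.2%). Without the 3 libraries with the fewest genes, 5 of the 10 were called in BTPRZ-T against N, 3 in BT-T against N and 3 between BTPRZ-T and BT-T, where 34.9%, 28.7% and 24.5% of all genes were called. That fit keeps BTPRZ-T replicates 2 and 3 alone for their group, N replicates 1, 3 and 4, and all of BT-T.

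**Figure D1:**
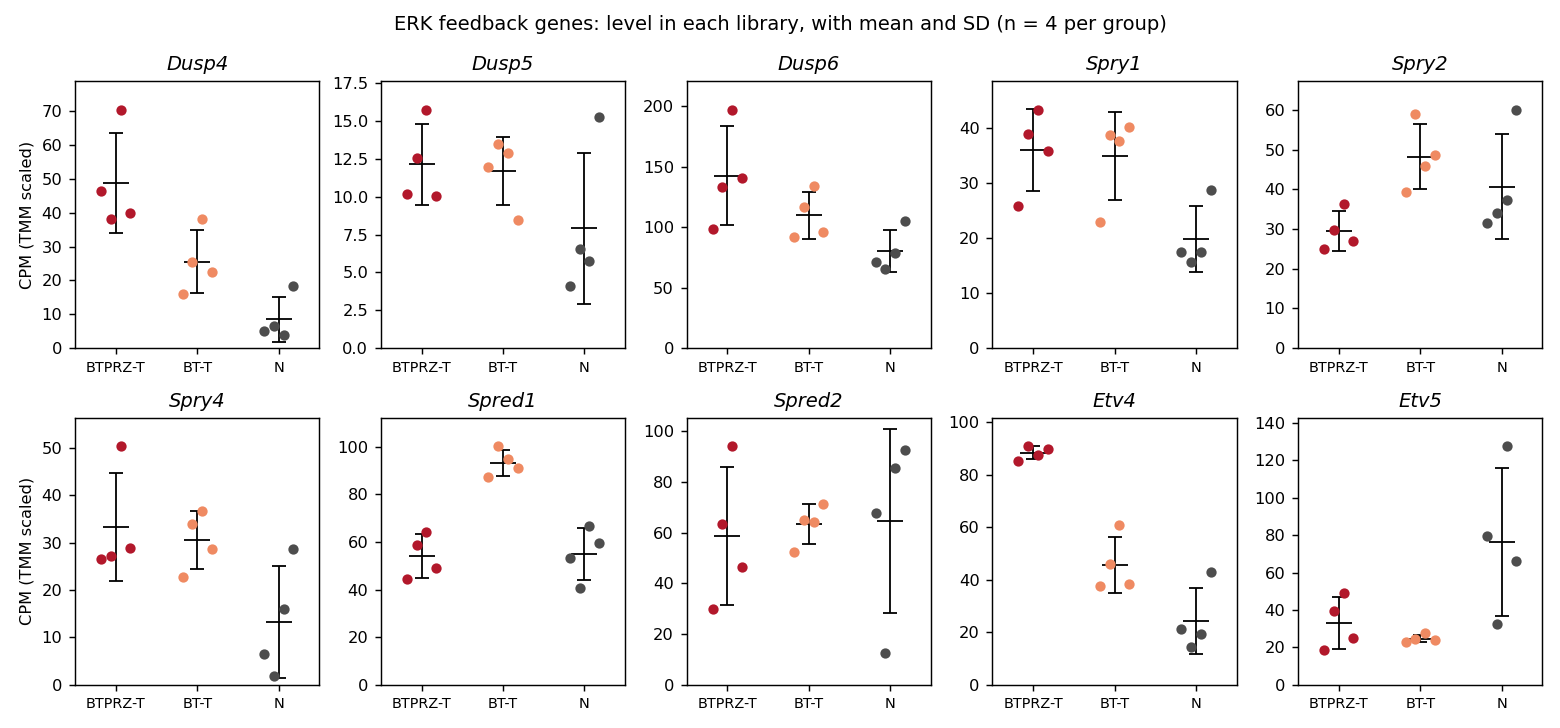
Level of each ERK feedback gene in every library (points, CPM after TMM scaling, linear axis from 0), with the mean and SD of the 4 libraries of BTPRZ-T, BT-T and N. The 4 BTPRZ-T libraries lie above all N libraries for Dusp4 and Etv4, the 4 BT-T libraries lie above all N libraries for Spred1 and below them for Etv5.

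Of the 3 phosphatase genes, Dusp4 and Dusp6 rose in BTPRZ-T against N, and none was called by edgeR in BT-T against N. Dusp4 (chromosome 8, 34807297 to 34819894, + strand, GENCODE M21 on GRCm38) encodes a nuclear phosphatase of ERK and other MAP kinases. It had 46.5, 38.3, 70.5 and 39.9 CPM in BTPRZ-T, 15.9, 25.5, 38.1 and 22.5 CPM in BT-T, and 5.18, 6.63, 4.02 and 18.3 CPM in N. Every BTPRZ-T library was above every BT-T and N library, and the lowest BT-T library was below N replicate 4. Dusp4 rose 5.72-fold in BTPRZ-T against N (log2 2.52 ± 0.47 SE, 95% interval of the fold 2.80 to 11.7, edgeR adjusted p = 0.00531), and it was called under all 22 alternative settings. In BT-T against N its fold was 2.99 (1.49 to 5.98, adjusted p = 0.0534), past the threshold when N replicate 4 was left out (log2 2.27, adjusted p = 0.00456). Here and below, a fit without N replicate 4 lacks the only N library with almost no RNA of Ddx3y, a Y-linked gene. Dusp4 was also called in BT-T against N with DESeq2 (adjusted p = 0.00870), voom (0.0333), upper quartile factors (0.0420) and no filter (0.0482). Between BTPRZ-T and BT-T the log2 difference was 0.94 ± 0.45 (adjusted p = 0.306).

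Dusp6 (chromosome 10, 99263231 to 99267489, + strand) encodes a cytoplasmic phosphatase selective for ERK, and its RNA is a widely used readout of ERK activity. It had 98.8, 133.5, 197.2 and 140.5 CPM in BTPRZ-T, 91.6, 116.4, 134.4 and 96.4 CPM in BT-T, and 71.6, 65.2, 78.9 and 104.9 CPM in N. Its groups overlapped: BTPRZ-T replicate 1 and BT-T replicates 1 and 4 were below N replicate 4. Dusp6 rose 1.78-fold in BTPRZ-T against N (log2 0.83 ± 0.25, adjusted p = 0.0498), a call made under 8 of 22 alternatives. It was lost without any of BTPRZ-T replicates 2, 3 and 4, BT-T replicates 1 to 4 and N replicates 1 and 3 (adjusted p 0.0668 to 0.134). In BT-T against N the log2 fold change was 0.45 ± 0.25 (adjusted p = 0.289), with a 95% interval of the fold of 0.940 to 1.99.

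Dusp5 (chromosome 19, 53529109 to 53542431, + strand) encodes a nuclear phosphatase of ERK and has an antisense gene on the opposite strand, AC137853.2, which the stranded counts keep apart. It had 10.2, 12.5, 15.8 and 10.04 CPM in BTPRZ-T, 11.99, 13.5, 12.9 and 8.46 CPM in BT-T, and 4.09, 6.57, 5.73 and 15.3 CPM in N. All 8 tumour libraries were above N replicates 1 to 3, and 7 of the 8 were below N replicate 4. Neither tumour group passed the test against N (log2 0.62 ± 0.39, adjusted p = 0.366 in BTPRZ-T; log2 0.57 ± 0.39, adjusted p = 0.402 in BT-T). Without N replicate 4, the log2 fold change in BTPRZ-T against N was 1.15 and passed the test (adjusted p = 0.0474).

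Of the other 7 MAP kinase phosphatases listed, 1 rose in each tumour group against N, Dusp9, and the other 6 were not called. Of all genes tested, 5.66% were called higher in BTPRZ-T and 5.67% in BT-T. Without the 3 libraries with the fewest genes, 3 of the 7 were called in BTPRZ-T against N and 4 in BT-T against N. In that fit 34.9% and 28.7% of all genes were called. Dusp9 encodes a cytoplasmic phosphatase and was scarce in normal colon. It averaged 6.87 ± 4.41 CPM in BTPRZ-T, 4.92 ± 1.21 CPM in BT-T and 0.635 ± 0.246 CPM in N (SD, n = 4 each). Its log2 fold change was 3.42 ± 0.56 in BTPRZ-T (adjusted p = 0.00214) and 2.94 ± 0.55 in BT-T (adjusted p = 0.00554), and both calls were made under all 22 alternatives. The abundant phosphatase genes Dusp16, Dusp1 and Dusp7 did not pass the test. Dusp16, which acts on JNK and p38, averaged 51.0 ± 16.8 CPM in BTPRZ-T, 54.0 ± 5.21 CPM in BT-T and 58.7 ± 27.6 CPM in N. Dusp1, an immediate early gene, averaged 48.5 ± 19.1 CPM in BTPRZ-T, 44.1 ± 13.7 CPM in BT-T and 32.1 ± 18.95 CPM in N. Dusp7, which acts on ERK, averaged 24.5 ± 3.67 CPM in BTPRZ-T, 25.5 ± 4.76 CPM in BT-T and 12.1 ± 8.04 CPM in N. Every tumour library was above every N library for Dusp7, and its N libraries ranged from 0.54 to 18.4 CPM.

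The Sprouty genes were not called by edgeR in any comparison, and DESeq2 called Spry1 against N in both tumour groups. Spry1 (chromosome 3, 37639947 to 37644598, + strand) had 25.8, 38.8, 43.2 and 35.7 CPM in BTPRZ-T, 22.9, 38.7, 37.5 and 40.1 CPM in BT-T, and 17.4, 15.7, 17.5 and 28.8 CPM in N. BTPRZ-T replicate 1 and BT-T replicate 1 were below N replicate 4, and the other 6 tumour libraries were above all of N. Relative to N, Spry1 differed by log2 0.86 ± 0.27 in BTPRZ-T (adjusted p = 0.0625) and by 0.81 ± 0.27 in BT-T (adjusted p = 0.0906). With DESeq2 the adjusted p was 0.0264 in BTPRZ-T and 0.0369 in BT-T. Without N replicate 4, the only N library with almost no Ddx3y, both passed the edgeR test. The log2 fold change was then 1.09 (adjusted p = 0.0290) in BTPRZ-T and 1.05 (adjusted p = 0.0375) in BT-T. Between BTPRZ-T and BT-T the 95% interval of the fold was 0.686 to 1.55.

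Spry4 (chromosome 18, 38586247 to 38601415, − strand) had 26.6, 27.3, 50.4 and 29.0 CPM in BTPRZ-T, 22.8, 33.9, 36.7 and 28.8 CPM in BT-T, and 6.51, 1.76, 16.0 and 28.7 CPM in N. The normal libraries spread most for this gene, with a coefficient of variation of 89.7%, and N replicate 4 lay among the tumour libraries. The log2 fold change was 1.33 ± 0.60 in BTPRZ-T against N (adjusted p = 0.186) and 1.21 ± 0.60 in BT-T against N (adjusted p = 0.240). Without N replicate 4, BTPRZ-T passed the test at log2 2.04 (adjusted p = 0.0491).

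Spry2 (chromosome 14, 105891947 to 105896819, − strand) had 24.9, 29.9, 36.4 and 27.0 CPM in BTPRZ-T, 39.4, 59.1, 45.8 and 48.7 CPM in BT-T, and 31.5, 33.9, 37.3 and 60.1 CPM in N. Every BTPRZ-T library was below every BT-T library. The log2 difference between them was -0.71 ± 0.25 (adjusted p = 0.177), and it passed the test without N replicate 2 (adjusted p = 0.0436). Against N, the log2 fold change was -0.46 ± 0.25 in BTPRZ-T (adjusted p = 0.271) and 0.25 ± 0.25 in BT-T (adjusted p = 0.594).

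Spred1 (chromosome 2, 117121374 to 117182279, + strand), which recruits neurofibromin to dampen RAS, rose in BT-T. It had 44.5, 58.9, 64.3 and 48.9 CPM in BTPRZ-T, 87.3, 100.2, 94.7 and 91.2 CPM in BT-T, and 53.3, 40.9, 66.6 and 59.7 CPM in N. All BT-T libraries stood above every library of both other groups, and BTPRZ-T and N overlapped. The rise was 1.69-fold in BT-T against N (log2 0.76 ± 0.20, 95% interval of the fold 1.25 to 2.30, adjusted p = 0.0367), a call made under 14 of 22 alternatives. It was lost without any of BTPRZ-T replicate 2, BT-T replicates 1 to 4 and N replicates 1 and 4, at adjusted p 0.0546 to 0.118 and log2 fold changes of 0.72 to 0.80. In BTPRZ-T against N the log2 fold change was -0.03 ± 0.20 (adjusted p = 0.960). Directly between BTPRZ-T and BT-T it was -0.79 ± 0.20 (adjusted p = 0.0905), and DESeq2 called it (adjusted p = 0.00146).

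Fibroblast and endothelial markers had their highest sums in the same BT-T group. Of 8 fibroblast markers, 6 were called higher in BT-T against N and 4 in BTPRZ-T against N. Of 8 endothelial markers, 4 were called higher in BT-T and 2 in BTPRZ-T, and their sum was 273.6 to 552.9 CPM in BTPRZ-T, 366.6 to 728.5 CPM in BT-T, with 113.6 to 222.3 CPM in N. Of 8 macrophage markers, 5 were called higher in BTPRZ-T and 6 in BT-T. No marker of the 3 lists was at 0 reads in any library. The part of these cell types in the level of Spred1 was not tested.

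Spred2 (chromosome 11, 19924375 to 20024026, + strand) had 30.1, 63.6, 94.0 and 46.6 CPM in BTPRZ-T, 52.4, 64.9, 64.2 and 71.4 CPM in BT-T, and 67.6, 12.5, 85.6 and 92.5 CPM in N. The means lay within 58.6 to 64.6 CPM, and no comparison passed the test. For BTPRZ-T against N, the log2 fold change was -0.14 ± 0.49 (95% interval of the fold 0.434 to 1.9, adjusted p = 0.909). N replicate 2 held 15.3% of the mean of the other 3 N libraries for Spred2 and 10.3% for Spry4, but 68.3% for Spred1.

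Of 6 further relatives and feedback inhibitors listed, 5 were among the symbols of the files and none was called against N by edgeR. At an unadjusted p under 0.05 there was 1 in each comparison with N, Spred3, a relative of Spred1 named after its values were seen. The share of all genes under that threshold is not given here. DESeq2 called 1 gene of the list in BT-T against N (16.1% of all genes called) and 0 in BTPRZ-T against N (20.5%), while voom called 0 in both. Lrig1, which limits EGF family receptors, averaged 247.7 ± 36.6 CPM in BTPRZ-T, 169.0 ± 20.0 CPM in BT-T and 172.6 ± 46.8 CPM in N. Errfi1, another receptor inhibitor, averaged 105.8 ± 5.15 CPM in BTPRZ-T, 97.3 ± 15.0 CPM in BT-T and 92.6 ± 51.5 CPM in N. Il17rd, also known as Sef, averaged 7.33 ± 3.86 CPM in BTPRZ-T, 21.4 ± 4.22 CPM in BT-T and 9.84 ± 5.35 CPM in N. Between BTPRZ-T and BT-T, Il17rd differed by log2 -1.54 ± 0.57 (edgeR adjusted p = 0.199), with every BTPRZ-T library lower. Lrig1 differed by log2 0.55 ± 0.24 (edgeR adjusted p = 0.271), with every BTPRZ-T library higher. With all libraries, edgeR, DESeq2 and voom each called 0 of the 5 in that comparison.

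**Figure D2:**
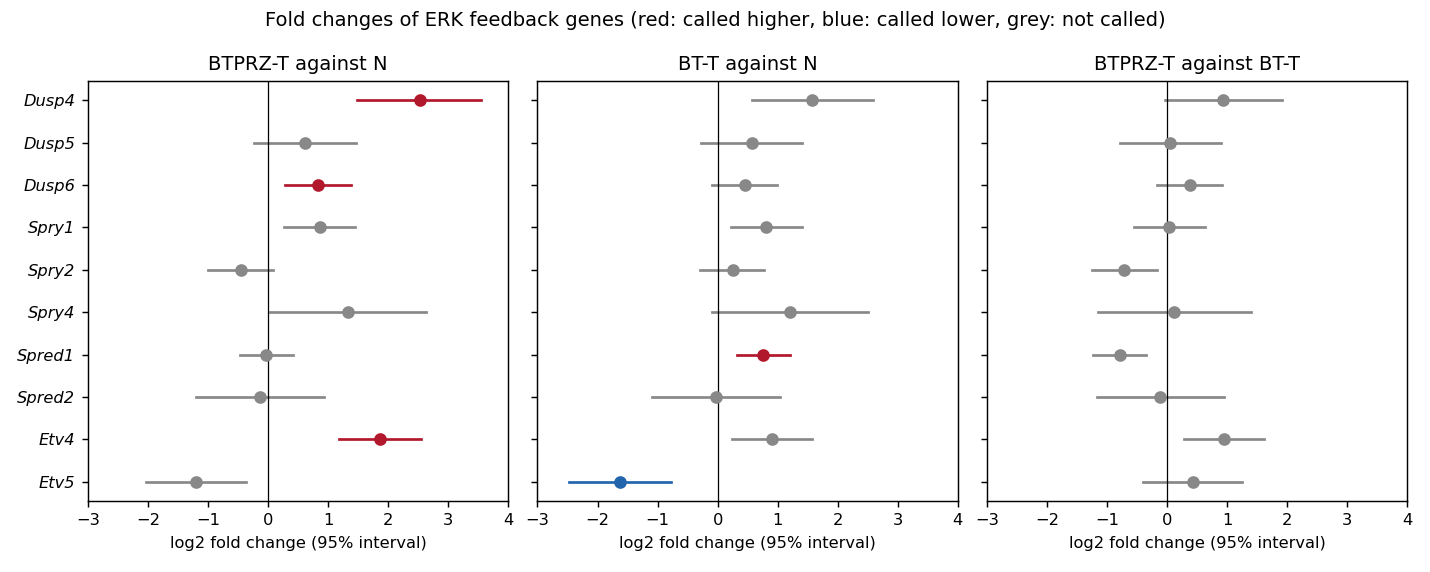
Fold change of each ERK feedback gene on a log2 scale with its 95% interval, for the comparisons named above each panel (red for called higher, blue for called lower, grey for not called; a value above 0 means higher in the group named first). Dusp4 in BTPRZ-T against N lies farthest from 0 at 2.52, Etv5 in BT-T against N is the one value called lower at -1.63, and no value is called between BTPRZ-T and BT-T.

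Of the PEA3 group genes, edgeR called Etv4 higher in BTPRZ-T and Etv5 lower in BT-T against N. Etv4 (chromosome 11, 101769742 to 101785371, − strand) had 85.3, 90.8, 87.5 and 89.9 CPM in BTPRZ-T, 37.8, 45.9, 60.9 and 38.3 CPM in BT-T, and 21.1, 14.4, 19.2 and 42.8 CPM in N. The BTPRZ-T libraries lay within a coefficient of variation of 2.83%, the lowest of the 10 genes, and above every other library. Etv4 rose 3.62-fold in BTPRZ-T against N (log2 1.86 ± 0.31, adjusted p = 0.00282), and it was called under all 22 alternatives, with log2 fold changes of 1.67 to 2.27. In BT-T against N the log2 fold change was 0.91 ± 0.31 (adjusted p = 0.0915). DESeq2 called Etv4 higher there with all libraries (log2 0.90, adjusted p = 0.0368), as did edgeR without N replicate 4 (log2 1.32, adjusted p = 0.00740). Between BTPRZ-T and BT-T the log2 fold change was 0.95 ± 0.31 (adjusted p = 0.148), which passed the test with DESeq2 (adjusted p = 0.0474) and without N replicate 2 (adjusted p = 0.0237).

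Etv5 (chromosome 16, 22381309 to 22439719, − strand) had 18.7, 39.6, 49.1 and 25.1 CPM in BTPRZ-T, 23.1, 24.3, 27.5 and 23.7 CPM in BT-T, and 79.3, 32.4, 127.4 and 66.2 CPM in N. All BT-T libraries were below all N libraries, while BTPRZ-T replicates 2 and 3 were above N replicate 2. Etv5 fell 3.09-fold in BT-T against N (log2 -1.63 ± 0.39, adjusted p = 0.0225), a call made under 16 of 22 alternatives. It was lost without any of BT-T replicates 1 to 4 and N replicates 1 and 3, at adjusted p 0.0548 to 0.0752. In BTPRZ-T against N the log2 fold change was -1.20 ± 0.39 (adjusted p = 0.0631), and without N replicate 2 it was -1.46 (adjusted p = 0.00480). DESeq2 called Etv5 lower there (log2 -1.24, adjusted p = 0.0123), as did edgeR without the 3 libraries with the fewest genes (log2 -0.98, adjusted p = 0.0129). Between BTPRZ-T and BT-T the log2 fold change was 0.43 ± 0.38 (adjusted p = 0.570). It was called under 1 of 22 alternatives, edgeR without the 3 libraries with the fewest genes (log2 0.83, adjusted p = 0.0245). That fit holds BTPRZ-T replicates 2 and 3 alone for their group, the BTPRZ-T libraries with the higher Etv5 levels.

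Smooth muscle markers had sums below N in both tumour groups. Of the 8, edgeR called 5 lower in BTPRZ-T against N and 0 in BT-T against N. In BT-T against N, DESeq2 and voom also called 0. There, 1 marker had an unadjusted p under 0.05, for which the share of all genes is not given here. Of 4 markers of interstitial cells of Cajal, the pacemaker cells of the gut wall, 2 were called lower in BTPRZ-T against N and 1 in BT-T against N, and their sum was 182.6 to 343.8 CPM in BTPRZ-T, 393.4 to 488.7 CPM in BT-T, with 120.9 to 538.2 CPM in N. The marker called in BT-T was Gpr20, named after its values were seen, at a mean of 8.62 CPM in BT-T and 23.4 CPM in N (log2 -1.44 ± 0.30, adjusted p = 0.0102, every BT-T library below every N library). The 4 markers did not go 1 way in BT-T against N: 3 had a log2 fold change below 0 and 1 above 0. Markers of enteric neurons and glia summed to 6.50 to 37.8 CPM in BTPRZ-T, 26.4 to 74.5 CPM in BT-T, with 48.1 to 108.4 CPM in N. Among the markers with no reads in some libraries, Sox10 was at 0 in BTPRZ-T replicates 1 and 4, Elavl4 in BTPRZ-T replicate 4 and N replicate 2, Prph in BTPRZ-T replicate 4, and S100b in N replicate 2. The part of these cell types in the level of Etv5 was not tested.

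Ratios between relatives within a library do not depend on the scaling of that library. The pairs were chosen after the values had been seen, so the ratios are a description with no test. They are given per kb of the longest GENCODE M21 transcript. Etv4 stood at 7.56, 3.80, 2.96 and 5.95 times Etv5 in BTPRZ-T, 2.71, 3.13, 3.67 and 2.68 times in BT-T, and 0.442, 0.738, 0.250 and 1.07 times in N. All 8 tumour libraries were above all N libraries. The ratio of Spry1 to Spry2 was 0.778 to 0.996 in BTPRZ-T, 0.438 to 0.620 in BT-T and 0.349 to 0.416 in N. For Spry4 to Spry2 it was 0.401 to 0.608 in BTPRZ-T, 0.252 to 0.352 in BT-T and 0.0228 to 0.210 in N. Neither Sprouty ratio overlapped between any pair of groups. Both ratios divide by Spry2, so they are not separate results. Between BTPRZ-T and BT-T, Spry2 differed by log2 -0.71 ± 0.25, Spry1 by 0.04 ± 0.27 and Spry4 by 0.12 ± 0.59, none of them called by edgeR.

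Dusp4 stood at 0.289 to 0.481 of Dusp6 in BTPRZ-T, 0.177 to 0.289 in BT-T and 0.0520 to 0.178 in N, with the lowest BT-T library just below the highest N library. Dusp5 to Dusp6 overlapped in all groups, at 0.0808 to 0.117 in BTPRZ-T, 0.0993 to 0.148 in BT-T and 0.0645 to 0.164 in N. Spred1 to Spred2 was 0.506 to 1.09 in BTPRZ-T, 0.945 to 1.23 in BT-T and 0.477 to 2.41 in N, where the highest value was that of N replicate 2 and the other N libraries reached 0.583 at most.

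**Figure D3:**
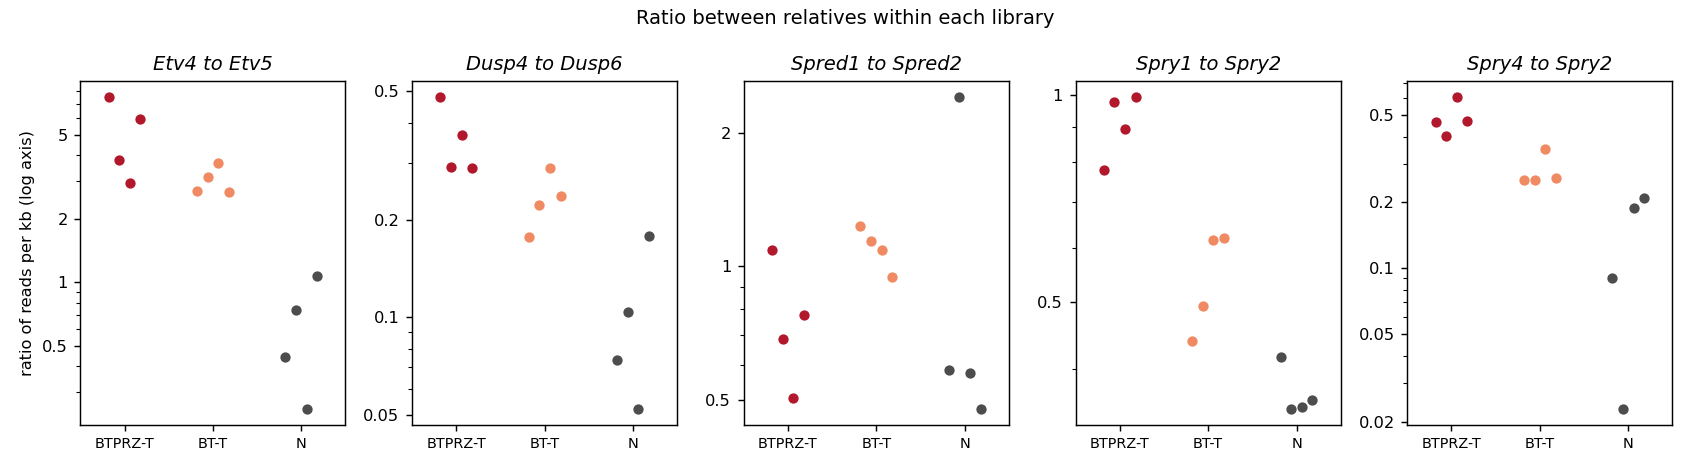
Ratio of reads per kb between pairs of relatives in each library of BTPRZ-T, BT-T and N (points; log axes). Etv4 to Etv5 is at least 2.68 in all tumour libraries, against at most 1.07 in N. Both Sprouty ratios, which share Spry2 as the divisor, fall into 3 separate ranges.

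Per kb of transcript, Dusp6 had the highest level in each group, at 51.0 ± 14.6 CPM per kb in BTPRZ-T, 39.2 ± 7.03 in BT-T and 28.7 ± 6.23 in N. In BTPRZ-T the order went on with Etv4 at 36.9 ± 1.04 CPM per kb, Dusp4 at 17.8, Spry2 at 14.2, Spred2 at 13.2, Spry1 at 12.9, Spred1 at 9.001, Etv5 at 8.33, Spry4 at 7.003 and Dusp5 at 4.91. Only the step between Etv4 and Dusp4 separated neighbours whose libraries did not overlap. In BT-T, Spry2 at 23.1 CPM per kb and Etv4 at 19.1 followed Dusp6, then Spred1 at 15.5, Spred2 at 14.2, Spry1 at 12.6, Dusp4 at 9.29, Spry4 at 6.43, Etv5 at 6.21 and Dusp5 at 4.74. Dusp6 did not overlap with Spry2 there, nor Etv5 with Dusp5. In N the order after Dusp6 was Spry2 at 19.5 CPM per kb, Etv5 at 19.2, Spred2 at 14.5, Etv4 at 10.2, Spred1 at 9.16, Spry1 at 7.15, Dusp5 at 3.20, Dusp4 at 3.11 and Spry4 at 2.78, and all neighbours overlapped. Dusp4 thus stood ninth by level in N and the third in BTPRZ-T.

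**Figure D4:**
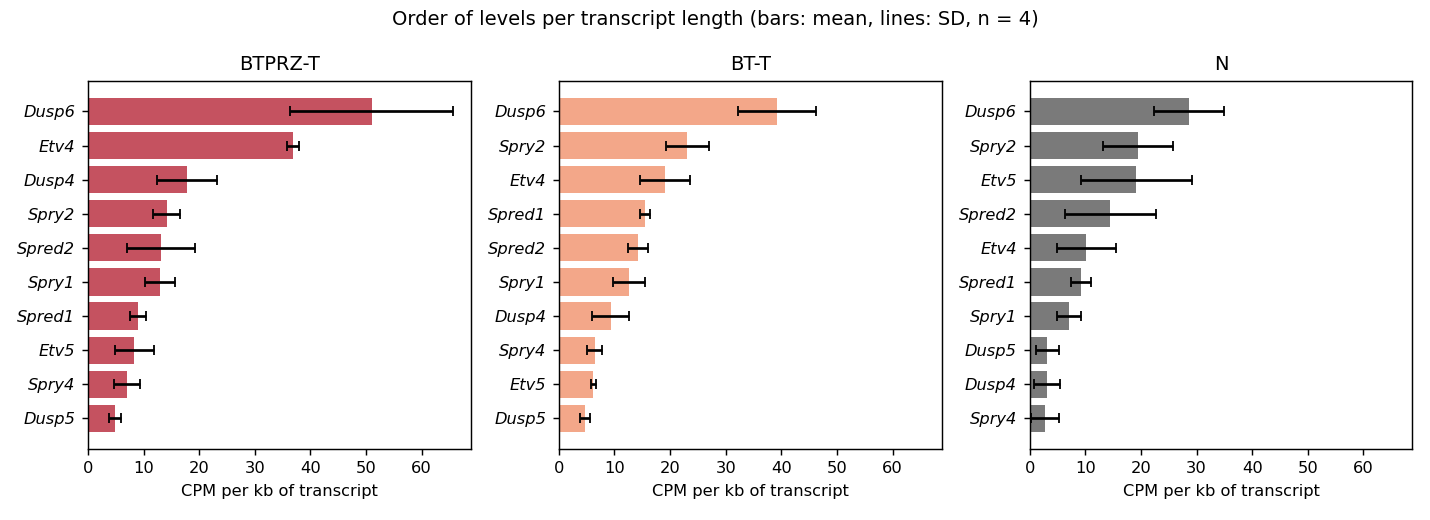
Level of the ERK feedback genes per kb of transcript in each group (bars for the mean, lines for the SD over 4 libraries, linear axis from 0), sorted from the highest. Dusp6 leads in each panel, Etv4 follows it in BTPRZ-T at 36.9 CPM per kb, and Etv5 is the third in N at 19.2 CPM per kb.

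Within groups, the median coefficient of variation of the 10 genes was 25.3% in BTPRZ-T, 18.6% in BT-T and 51.6% in N. BTPRZ-T replicate 3 was the highest BTPRZ-T library for 9 of the 10 genes and BTPRZ-T replicate 1 the lowest for 8. BT-T replicate 1 was the lowest BT-T library for 9. N replicate 4 was the highest N library for 8 of the 10 genes and N replicate 2 the lowest for 7. In N replicate 4, Dusp4 was 3.98 times the mean of N replicates 1 and 3, Dusp5 3.11 times and Etv4 2.12 times, while Etv5 was 0.641 times. N replicate 4 was also the one N library with Xist at 1153 CPM and almost no Ddx3y, a Y-linked gene (0.0675 CPM, against 33.4 to 43.7 CPM in the other N libraries). In the tumours, which hold engrafted and host cells, Xist was 505 to 1549 CPM in BTPRZ-T and 95.8 to 1381 CPM in BT-T, against 1.09 to 16.6 CPM in N replicates 1 to 3. Ddx3y was at most 0.110 CPM in BTPRZ-T replicates 1, 3 and 4 and 12.7 CPM in BTPRZ-T replicate 2. It was 0.0349 CPM in BT-T replicate 1 and 39.4 to 47.6 CPM in the other BT-T libraries. Sex-linked RNA thus ran largely with the difference between BTPRZ-T and N. In the fits without N replicate 4, all N libraries left had Ddx3y at 33.4 to 43.7 CPM. The part of sex-linked RNA in the results, with or without N replicate 4, was not tested.

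Of 14 other outputs of the ERK pathway, 6 rose in BTPRZ-T and 5 in BT-T against N, and none fell. Of all genes tested, 5.66% were called higher in BTPRZ-T and 5.67% in BT-T. DESeq2 called 8 of the 14 in BTPRZ-T against N (20.5% of all genes called) and 6 in BT-T against N (16.1%). With voom, 8 were called in BTPRZ-T (10.8%) and 6 in BT-T (8.84%). The list was chosen with earlier results of these data known, so its counts and medians are a description. The median log2 fold change of the 14 outputs was 1.11 in BTPRZ-T and 0.87 in BT-T, beside -0.10 for all genes tested in each. Between BTPRZ-T and BT-T it was 0.08, and none was called by edgeR, DESeq2 or voom. In that comparison 2 had an unadjusted p under 0.05, for which the share of all genes is not given here. Ier3, an early response gene, averaged 81.7 ± 31.7 CPM in BTPRZ-T, 66.4 ± 24.2 CPM in BT-T and 10.8 ± 4.82 CPM in N. Its log2 fold change was 2.92 ± 0.41 in BTPRZ-T (adjusted p = 0.00106) and 2.63 ± 0.41 in BT-T (adjusted p = 0.00223). Plaur, the urokinase receptor, averaged 51.1 ± 6.35 CPM in BTPRZ-T, 69.8 ± 9.63 CPM in BT-T and 16.3 ± 4.93 CPM in N (log2 1.65 ± 0.25, adjusted p = 0.00156 in BTPRZ-T; 2.10 ± 0.25, adjusted p = 0.000563 in BT-T). Hbegf, an EGF receptor ligand, averaged 41.8 ± 4.403 CPM in BTPRZ-T, 58.8 ± 15.4 CPM in BT-T and 20.3 ± 2.69 CPM in N (log2 1.04 ± 0.23, adjusted p = 0.0107 in BTPRZ-T; 1.53 ± 0.23, adjusted p = 0.00168 in BT-T). These 3 genes were called in both tumour groups under all 22 alternatives.

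Ccnd1, which encodes cyclin D1, averaged 277.4 ± 59.4 CPM in BTPRZ-T, 272.1 ± 47.5 CPM in BT-T and 110.9 ± 46.4 CPM in N, with log2 fold changes of 1.32 ± 0.34 in BTPRZ-T (adjusted p = 0.0246) and 1.29 ± 0.34 in BT-T (adjusted p = 0.0334). Its BTPRZ-T call was lost without any of BTPRZ-T replicates 2 and 4 and N replicate 4 (adjusted p 0.0512 to 0.0666), and its BT-T call without any of BT-T replicates 2, 3 and 4 and N replicates 1 and 4 (0.0608 to 0.0983). Phlda1 averaged 217.4 ± 42.3 CPM in BTPRZ-T, 108.5 ± 30.4 CPM in BT-T and 59.3 ± 28.3 CPM in N. It rose in BTPRZ-T (log2 1.87 ± 0.35, adjusted p = 0.00485) under all 22 alternatives too, and did not pass in BT-T (0.87 ± 0.34, adjusted p = 0.141). Myc, a growth regulator, averaged 160.4 ± 35.3 CPM in BTPRZ-T, 112.3 ± 7.02 CPM in BT-T and 71.2 ± 40.7 CPM in N. It rose in BTPRZ-T (log2 1.17 ± 0.33, adjusted p = 0.0373), a call lost without any of BTPRZ-T replicates 2, 3 and 4, BT-T replicates 1 to 4 and N replicates 1 and 3 (0.0565 to 0.108). Epha2, a receptor tyrosine kinase, averaged 84.7 ± 25.6 CPM in BTPRZ-T, 125.1 ± 15.7 CPM in BT-T and 33.1 ± 24.9 CPM in N. It rose in BT-T (log2 1.92 ± 0.44, adjusted p = 0.0173), a call lost without BT-T replicate 2, N replicate 1 or N replicate 3 (0.0505 to 0.0578).

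The most abundant outputs that edgeR called in no comparison, with all libraries fitted, were Emp1, Fos and Egr1. Emp1, a membrane protein gene, averaged 625.2 ± 175.8 CPM in BTPRZ-T, 835.1 ± 196.4 CPM in BT-T and 748.8 ± 298.9 CPM in N. Fos, an immediate early gene, averaged 110.8 ± 79.1 CPM in BTPRZ-T, 96.5 ± 46.2 CPM in BT-T and 98.4 ± 29.8 CPM in N. Egr1, another immediate early gene, averaged 77.5 ± 41.9 CPM in BTPRZ-T, 98.7 ± 22.7 CPM in BT-T and 74.3 ± 36.0 CPM in N.

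Across the 12 libraries, the genes most like Etv4, Dusp6 and Spry4 were found by the mean absolute difference of log2 CPM centred for each gene. For Etv4 they were Rnf43 at 0.25, one of the edited genes, then Ddit4 and Phlda1 at 0.26. For Dusp6 they were Mybbp1a and Zfp512 at 0.16 and Bmi1 at 0.18. For Spry4 the nearest genes were farther away, with Bcl2l11 at 0.33 and Cdyl and Piezo1 at 0.36.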

How the data were processed

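The deposited files hold raw read counts per gene, with no normalization by the authors: 1 unstranded and 2 stranded columns for each library. Libraries came from a stranded poly(A) kit sequenced as single reads, per the labels' protocols. The submitters' processing notes name bcl2fastq 2.20, STAR 2.4.2a, the build mm10, edgeR 3.16.5, limma and HTSeq, without their steps. Their annotation is not named there. Reads placed at several loci are not counted in genes, so near-identical copies keep their uniquely placed reads alone.

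The stranded column with nearly all gene reads was used (the other strand held 0.819 to 0.994% as many). Genes were filtered with filterByExpr by group, scaled with TMM and fitted in 1 model over all 12 libraries with edgeR 4.0.16 in R 4.3.3 (glmQLFit with robust estimation, glmQLFTest, two-sided). Adjusted p-values are Benjamini-Hochberg over the 14860 genes tested, with a common biological coefficient of variation of 0.501. Means carry the SD of 4 libraries (±), log2 fold changes their standard error. Levels per kb use the longest GENCODE M21 transcript. Results were recomputed under 22 alternatives: scaling by RLE or by upper quartile, no filter, 2 CPM in 4 libraries, DESeq2 1.42.0, limma 3.58.1 with voom, unstranded counts, a replicate block, the compared groups alone, each library left out, and the 3 libraries with the fewest genes left out.

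All 10 genes are named in each comparison. The 3 other lists (phosphatases, relatives, outputs) are given as counts, with values for called members and up to 3 uncalled ones of the highest level. Likeness was computed for all 10 genes and is given for Dusp6, Spry4 and Etv4. The genes and lists were chosen with earlier results of these data known. The model was tested on simulated data. The values of 1 cell type marker are not reported here.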

Additional observations from a re-analysis of the deposited data

Results flagged for a closer look

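Of the 30 sets of 4 libraries (10 genes in 3 groups), 3 had a library farther from the others than Dixon's 95% value for 4 samples allows, where chance gives about 1 in 20 sets. Spry4 stood at 50.4 CPM in BTPRZ-T replicate 3, above the other 3 BTPRZ-T libraries, with a gap to the nearest of 0.899 of the range. Spry1 stood at 22.9 CPM in BT-T replicate 1, below the other BT-T libraries, with a gap of 0.848 of the range. In N replicate 4, Spry1 stood at 28.8 CPM, above the other N libraries, with a gap of 0.863 of the range.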

How the results depend on the processing

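In BTPRZ-T against N, 3 of the 10 genes were called; DESeq2 called 5, the fit without the 3 libraries with the fewest genes 5, and leaving out 1 library gave 2 to 6. In BT-T against N, where 2 were called, DESeq2 called 5, the replicate block 1, and leaving out 1 library gave 0 to 4. Between BTPRZ-T and BT-T, where 0 were called, DESeq2 called 2, the compared groups alone 3, the fit without the 3 libraries 3, and leaving out 1 library gave 0 to 3. Over all genes, BTPRZ-T against N had 1760 calls, 3048 with DESeq2, 1160 with the block, 5311 without the 3 libraries, 647 with the groups alone and 1076 to 4855 without 1 library. BT-T against N had 1274 calls, 2394 with DESeq2, 4359 without the 3 libraries and 624 to 2030 without 1 library. BTPRZ-T against BT-T had 112 calls, 1217 with DESeq2, 226 with voom, 1 with the block, 3723 without the 3 libraries, 1568 with the groups alone and 0 to 2714 without 1 library. The cause of these changes was not tested.

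Without each library in turn, Spred2 ranged from -0.48 to 0.08 in BTPRZ-T against N, from -0.37 to 0.19 in BT-T against N and from -0.44 to 0.11 between BTPRZ-T and BT-T, where Spry1 reached 0.17 and Spry4 0.22. None of the log2 values that changed sign was called. In BTPRZ-T against N (Spred1 -0.03, Spred2 -0.14), Spred1 was 0.05 with upper quartile factors, 0.06 and 0.03 without BTPRZ-T replicates 1 and 4, 0.08 and 0.01 without N replicates 3 and 4, and 0.10 without the 3 libraries. Spred2 was 0.08 with voom, 0.08 without BTPRZ-T replicate 1, and 0.02 and 0.08 without N replicates 3 and 4. In BT-T against N (Spred2 -0.03), Spred2 was 0.04 with upper quartile factors, 0.03 with no filter, 0.30 with voom, 0.08 with the replicate block, 0.03 with the groups alone, 0.02 without BTPRZ-T replicate 4, 0.05 without BT-T replicate 1, and 0.13 and 0.19 without N replicates 3 and 4. Between BTPRZ-T and BT-T, Spry1 (0.04) was -0.01 with no filter, -0.06 without BTPRZ-T replicate 3, -0.11 without BT-T replicate 1 and -0.02 with the groups alone. Spred2 (-0.11) was 0.11 without BTPRZ-T replicate 1 and 0.30 without the 3 libraries. Dusp5 (0.05) was -0.10 without BTPRZ-T replicate 3, -0.08 without BT-T replicate 4 and -0.01 with the groups alone, and Spry4 (0.12) was -0.15 without BTPRZ-T replicate 3.

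Deviations of same-numbered libraries from their group means correlated at -0.30 to 0.21 between BTPRZ-T and N, -0.25 to 0.24 between BT-T and N, and 0.07 to 0.32 between BTPRZ-T and BT-T, where 8 of 8 libraries correlated best with their own number. The labels do not say that numbers pair libraries, so the block is an alternative alone. It ended the calls of Dusp6 (adjusted p = 0.0797) and Ccnd1 (0.0540) in BTPRZ-T against N, and of Spred1 (0.0723) and Ccnd1 (0.0671) in BT-T against N. At 4 libraries a group, the wide intervals of Spry4 and Spred2 do not show that their levels were alike.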
